A study of Mus musculus with 3 samples.

Results

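The miRNAs described here are those of 1 serum RNA extract, made with the miRNeasy serum/plasma advanced kit and read on 1 mouse miRNA microarray. The array carried 4415 probes for 1881 miRNAs, every one of which entered the count. A probe was called detected when over 0.5 of its spots were flagged well above background by the scanner software, and a miRNA when at least 1 of its probes was. On that rule 71 of 1881 miRNAs (3.77%) were detected.

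Serum came from 8-week-old male C57BL/6NJcl mice, a wild-type inbred strain, given no treatment that the labels name, and was separated right after collection by 3 min of centrifugation in a serum tube. Each of the 3 extracts in the study started from 200 µL of serum, and 1.8 ng of RNA from each was labelled with the dye Cy3. One of the other extracts was made with the mirVana PARIS kit. For the remaining one, meant in the labels to measure total serum RNA, 700 µL of the phenol reagent QIAzol was added and the aqueous phase went through the exoRNeasy midi kit. The labels do not say how many mice gave serum or whether the extracts shared a pool. There was 1 array per kit, so no difference between kits had a replicate check and no p-value was computed. The ± after a signal is the error the scanner software assigned, and it is carried through to shares and to ratios of 2 miRNAs on 1 array. The ± after a log2 ratio between arrays is the standard error between spots. Neither covers variation between extractions or mice.

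MicroRNAs are short RNAs cut from hairpin precursors. Bases 2 to 8 of the mature strand, the seed, pair with messenger RNAs and set which ones are repressed, so miRNAs with the same seed form a family. In serum they travel inside vesicles or bound to Argonaute proteins and lipoproteins, and blood cells, endothelium and liver are known as main sources, with red cells adding their own miRNAs when they lyse.

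The extract had a steep composition, led by the red cell miRNA miR-451a. The mature sequences of 11 of its 12 brightest miRNAs are given in order of brightness, from RefSeq on build GRCm38.p6, with the seed in capitals.
miR-451a: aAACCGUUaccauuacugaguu
miR-3473b: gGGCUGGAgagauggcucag
miR-3963: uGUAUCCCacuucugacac
miR-21a-5p: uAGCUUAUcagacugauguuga
miR-223-3p: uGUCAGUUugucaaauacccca
miR-23a-3p: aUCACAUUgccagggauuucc
miR-16-5p: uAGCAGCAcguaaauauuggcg
miR-29a-3p: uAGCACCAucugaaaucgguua
miR-22-3p: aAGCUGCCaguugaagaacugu
miR-1224-5p: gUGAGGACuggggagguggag
miR-5100: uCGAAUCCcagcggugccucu

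No 2 of these 11 share a seed. Chromosome 11 holds 4 of them, miR-451a, miR-21a-5p, miR-22-3p and miR-5100. miR-451a lies at chr11:78073186-78073207 on the plus strand, miR-21a-5p at chr11:86584120-86584141 on the minus strand, miR-223-3p at chrX:96242884-96242905 on the plus strand and miR-3473b at chr10:41670774-41670793 on the plus strand.

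A single miRNA carried nearly as much signal as the other 70 together. The total gene signal is a value in array units that the software derives from a miRNA's probes, on another scale than single probe signals. For miR-451a it was 1640 ± 121, with the brightest probe at 4965. It made up 49.3% ± 1.89 of the summed signal of all detected miRNAs. miR-451a was 9.13 times as bright as the miRNA of rank 2. The next were miR-3473b at 180 ± 12.9 (5.40% ± 0.418), miR-3963 at 177 ± 14.7 (5.33% ± 0.463) and miR-21a-5p, a broadly expressed miRNA abundant in platelets and myeloid cells, at 169 ± 14.6 (5.07% ± 0.458). Ranks 2 to 4 did not differ beyond their errors. Below them the signal dropped to 83.5 ± 6.98 for miR-223-3p, the granulocyte and platelet miRNA, and 72.5 ± 6.09 for miR-23a-3p.

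Ranks 7 to 13 were taken by miR-709 (61.8 ± 5.42), miR-16-5p (55.2 ± 4.77), miR-29a-3p (49.0 ± 4.03), miR-22-3p (46.0 ± 4.13), miR-1224-5p (45.6 ± 4.59), miR-5100 (42.5 ± 3.96) and miR-5126 (34.0 ± 2.51). From miR-16-5p to miR-5100 the error ranges of neighbours overlapped. Ranks 14 to 25 held miR-24-3p, miR-15b-5p, miR-27a-3p, miR-15a-5p, miR-126a-3p, let-7i-5p, miR-19b-3p, let-7g-5p, miR-106b-5p, miR-6366, miR-1a-3p and miR-192-5p, from 32.9 down to 18.6. The brightest 5 miRNAs made up 67.6% ± 1.25 of the signal, the brightest 10 made up 76.2% ± 0.928 and the brightest 20 made up 85.5% ± 0.576. Each of 58 miRNAs held under 1%, and together these gave 20.2%. From rank 2 to rank 71 the signal fell 63.2-fold.

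**Figure D1:**
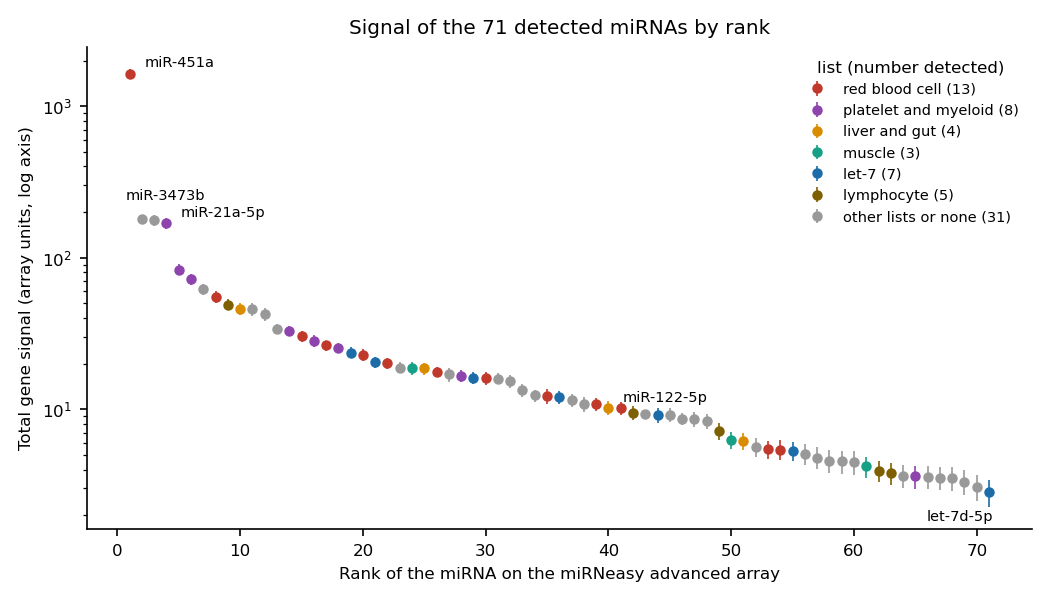
Total gene signal (array units, log axis) of the 71 detected miRNAs against their rank on the miRNeasy advanced array. Colours give the tissue list or the let-7 list that holds them, and bars the scanner software's error. miR-451a stands at 1640, 9.13 times the miRNA of rank 2, and the signal then declines without another gap of that size to 2.84 for let-7d-5p.

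These shares are shares of fluorescence, not of molecules, since brightness depends on the probe. Every miRNA had 30 spots in all, but the total gene signal also depended on how many of its probes were detected. For miR-1a-3p, with 1 of 2 probes detected, the total was 18.7 and the brightest probe was at 88.2. For miR-106b-5p, with 2 of 2 detected, they were 20.1 and 66.2. In 42 miRNAs with 2 or more detected probes the brightest probe exceeded the dimmest by a median of 2.10-fold, with a range of 1.04 to 10.4 that ended at miR-5100, and 29 miRNAs rested on 1 detected probe.

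More of the signal was miR-451a than on the exoRNeasy array, and the total was the lowest of the 3. The summed signal of detected miRNAs was 3326 on the miRNeasy advanced array, 5259 on the exoRNeasy array and 11761 on the mirVana PARIS array. miR-451a measured 1640, 2063 and 6216 in the same order, with shares of 49.3% ± 1.89, 39.2% ± 1.80 and 52.9% ± 1.85. Its share was thus above that of the exoRNeasy array beyond these errors, and its error range met that of the mirVana PARIS array. The brightest 10 of each array made up 76.2% ± 0.928, 69.4% ± 0.969 and 74.1% ± 1.03.

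Tissue sources were described with 11 lists, most of them of miRNAs known to be abundant in a cell type or tissue. The let-7 list is a family and the Dlk1-Dio3 list a genomic cluster, so neither stands for a tissue. Most listed miRNAs are made in more than 1 tissue, so a list's share is a description of the extract and not a measured origin. In serum, fewer source cells and less RNA released per cell cannot be told apart. Blood cell lists led.

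The red blood cell list had 13 of 20 members on the array detected, with 56.3% ± 1.66 of the signal. After miR-451a, which matures through Argonaute 2 without Dicer, came miR-16-5p (1.66%), miR-15b-5p (0.912%), miR-15a-5p (0.792%), miR-19b-3p (0.686%) and miR-106b-5p (0.605%). The miRNA miR-144-3p, cut from the same transcript as miR-451a, had 0.531% ± 0.0476, and miR-486a-5p, another erythroid miRNA, had 0.305% ± 0.0334. The remaining detected members, miR-92a-3p, miR-25-3p, miR-20a-5p, miR-93-5p and miR-19a-3p, had 0.163% to 0.481%. The list's share was 47.6% ± 1.58 on the exoRNeasy array and 63.1% ± 1.48 on the mirVana PARIS array. Without miR-451a in the list and in the total, it was 13.8% ± 0.435, 13.8% ± 0.434 and 21.7% ± 0.576 on the miRNeasy advanced, exoRNeasy and mirVana PARIS arrays. The miRNeasy advanced and exoRNeasy values lay within their errors of each other, and both lay below that of mirVana PARIS beyond them.

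A ratio of miR-451a to miR-23a-3p is used as an index of red cell RNA in serum, because miR-23a-3p is little changed by lysis. It was added after the data had been seen. The log2 ratio of their signals was 4.50 ± 0.16 on the miRNeasy advanced array, 3.91 ± 0.16 on the exoRNeasy array and 4.78 ± 0.16 on the mirVana PARIS array. The part of red cell lysis in the shares was not tested.

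The platelet and myeloid list had 8 of 15 members detected with 13.0% ± 0.670 of the signal. It held miR-21a-5p, miR-223-3p and miR-23a-3p from the brightest 6, then miR-24-3p (0.988%) and miR-27a-3p (0.852%), which share a cluster with miR-23a-3p, the endothelial and platelet miRNA miR-126a-3p (0.765%), the blood cell miRNA miR-142a-3p and miR-328-3p (0.109%). Its share was 14.5% ± 0.655 on the exoRNeasy array and 9.99% ± 0.517 on the mirVana PARIS array. Without miR-451a in the total it was 25.6% ± 0.869, 23.9% ± 0.786 and 21.2% ± 0.687 in the order miRNeasy advanced, exoRNeasy, mirVana PARIS. It then exceeded the red blood cell list on the first 2 of these arrays and lay within its error range on the last. That order follows from taking the brightest member out of the red blood cell list alone, which held 56.3% here with it, so the 2 sources are not compared by it. The lymphocyte list had 5 of 9 members detected with 2.21% ± 0.152, of which miR-29a-3p alone gave 1.47%. Its other detected members were miR-29c-3p (0.286%), miR-342-3p (0.216%), miR-29b-3p (0.118%) and miR-146a-5p (0.114%). With normexp and an offset, a background correction that raises dim miRNAs, the list's share was 3.95%. The B and T cell miRNA miR-150-5p, the T and B cell activation miRNA miR-155-5p, and miR-181a-5p and miR-181b-5p were not detected.

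Members of the liver and gut list and of the muscle list were detected, with small shares. The liver and gut list had 4 of 10 members detected with 2.43% ± 0.164. They were miR-22-3p (1.38%), miR-192-5p (0.559%), the hepatocyte miRNA miR-122-5p (0.306% ± 0.0341) and miR-215-5p (0.185%). The signal of miR-122-5p was 10.2 ± 1.07, which placed it 40 in order of brightness. On the exoRNeasy array it measured 37.9, at rank 22, and with mirVana PARIS 67.1, at rank 23. The muscle list had 3 of 8 members detected with 0.875% ± 0.0734, all made in heart and skeletal muscle. miR-1a-3p held 0.562%, miR-133b-3p 0.188% and miR-133a-3p 0.126%. The muscle share was 1.32% ± 0.0942 on the exoRNeasy array and 1.75% ± 0.115 on the mirVana PARIS array, both above the miRNeasy advanced value beyond these errors. All 3 miRNAs had 1 of 2 probes detected here and on the exoRNeasy array, and 2 of 2 on the mirVana PARIS array. The muscle share depended on the signal used, and on this array it was 1.65% with the mean over detected probes and 2.53% with normexp and an offset. The skeletal muscle miRNA miR-206-3p and the heart miRNAs miR-208a-3p, miR-208b-3p and miR-499-5p were not detected.

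Solid tissue lists beyond liver and muscle gave little or nothing. Of the mesenchyme list 1 of 9 members was detected, miR-199a-3p, which is also abundant in platelets, with 0.401% ± 0.0398, or 0.725% with normexp and an offset. None of the 8 epithelial, 10 brain, 7 pancreas and kidney and 26 Dlk1-Dio3 miRNAs on the array was detected, the last being an imprinted cluster active in embryo, placenta and brain. On the exoRNeasy array the counts for these lists were 3, 0, 0 and 0, and on the mirVana PARIS array they were 5, 1, 1 and 0. No test was made of any list. Blood cell and liver miRNAs known from serum were thus present, and the counts per list stand beside 3.77% of all miRNAs on the array.

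**Figure D2:**
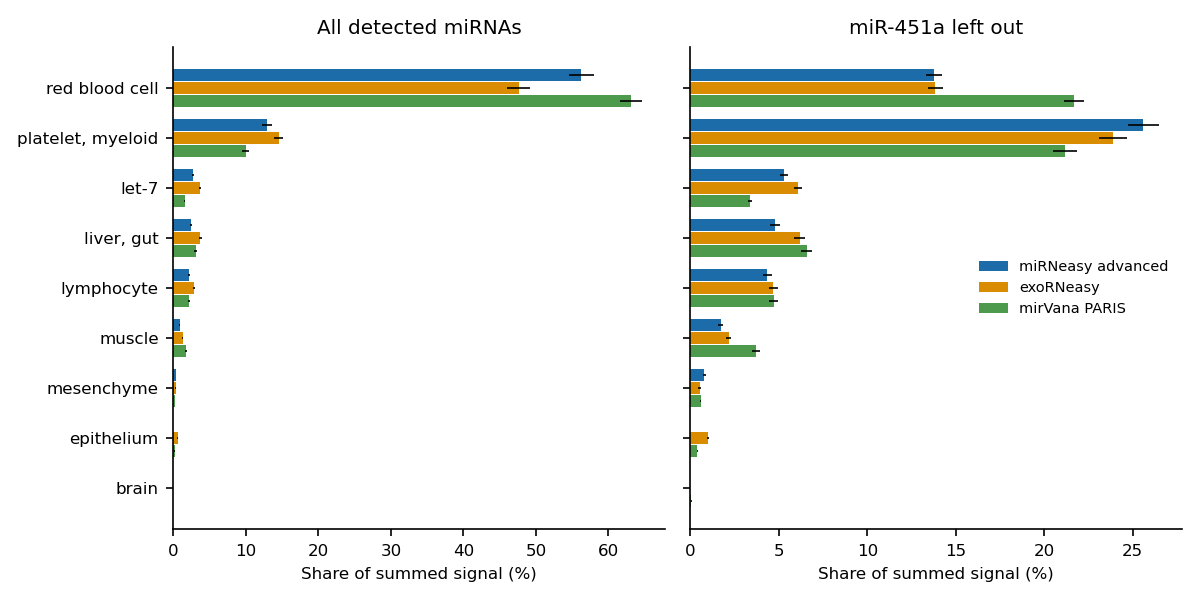
Share of summed signal (%) of 9 lists, let-7 and tissue lists, on the 3 arrays, with bars for the propagated scanner error. The left panel is over all detected miRNAs, and the right panel leaves miR-451a out of list and total. Red blood cell miRNAs hold 56.3% on the miRNeasy advanced array and 13.8% without miR-451a, where the platelet and myeloid list holds 25.6%.

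Of the 71 miRNAs, 30 were in no list, with 22.1% ± 0.962 of the signal. They include 5 of the brightest 12, which are miR-3473b, miR-3963, miR-709, miR-1224-5p and miR-5100. Many are late miRBase entries: 16 detected miRNAs have a number of 1000 or higher in their name, and these had 17.2% ± 0.820 of the signal, against 17.6% ± 0.756 from 18 on the exoRNeasy array and 12.3% ± 0.607 from 35 on the mirVana PARIS array. Among the 14 of these 16 with a RefSeq sequence the median GC content was 65.1%, against 40.9% for the other 47 detected miRNAs with one.

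Some of them share sequence. The letters GAGAUG were searched on the mature strand after the sequences had been seen, and occur in 18 of 1608 miRNAs on the array with a RefSeq sequence (1.12%). Detected on at least 1 array were the following 5, shown with those letters in capitals.
miR-3473a: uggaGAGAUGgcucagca
miR-3473b: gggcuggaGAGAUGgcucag
miR-3473e: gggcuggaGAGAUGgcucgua
miR-3473f: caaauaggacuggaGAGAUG
miR-5128: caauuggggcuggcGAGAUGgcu

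On the miRNeasy advanced array miR-3473b, miR-5128 and miR-3473f were detected, with 6.19% of the signal in sum. The corresponding sum was 5.92% on the exoRNeasy array, where miR-3473a joined them, and 3.10% on the mirVana PARIS array, where all 5 were detected. Whether their probes tell them apart was not tested.

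Detected miRNAs were next grouped by seed. A RefSeq mature sequence was matched for 61 of the 71 detected miRNAs, and those 61 had 42 different seeds. Of these seeds 8 were shared by 2 or more detected miRNAs, 27 miRNAs in all. The families with the largest shares were miR-15/16 and let-7, whose members are shown with the seed in capitals, brightest first.
miR-16-5p: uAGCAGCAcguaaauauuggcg
miR-15b-5p: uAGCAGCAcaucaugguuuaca
miR-15a-5p: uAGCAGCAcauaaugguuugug
miR-497a-5p: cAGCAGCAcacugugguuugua
miR-195a-5p: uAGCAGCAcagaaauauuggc
let-7i-5p: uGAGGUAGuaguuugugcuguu
let-7g-5p: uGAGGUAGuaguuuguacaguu
let-7c-5p: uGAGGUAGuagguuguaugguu
let-7b-5p: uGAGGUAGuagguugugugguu
let-7a-5p: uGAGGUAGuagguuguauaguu
let-7f-5p: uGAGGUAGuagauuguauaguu
let-7d-5p: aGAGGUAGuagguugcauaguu

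The miR-15/16 family, which represses cell cycle and survival genes such as Bcl2, had 5 of 10 members with that seed on the array detected and 3.56% ± 0.216 of the signal. Its 5 members spanned 55.2 for miR-16-5p to 3.07 for miR-195a-5p, although these 2 sequences differ at 2 of 21 bases compared. miR-16-5p is made from 2 loci, chr3:69009918-69009939 on the plus strand and chr14:61631936-61631957 on the minus strand, and the mature sequence does not show which one gave it. The family's share was 4.42% ± 0.25 on the exoRNeasy array and 5.12% ± 0.318 on the mirVana PARIS array.

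The let-7 family, which restrains growth and marks differentiated cells, had 7 of 11 members with its seed detected and 2.69% ± 0.144 of the signal. Its order was let-7i-5p (23.6 ± 1.92), let-7g-5p (20.4 ± 1.76), let-7c-5p (16.1 ± 1.46), let-7b-5p (12.1 ± 1.16), let-7a-5p (9.21 ± 1.04), let-7f-5p (5.32 ± 0.741) and let-7d-5p (2.84 ± 0.585). The pairs let-7i-5p with let-7g-5p and let-7g-5p with let-7c-5p differed by less than 2 joint errors, and let-7a-5p and let-7f-5p by over 3, although their sequences differ at 1 of 22 bases. let-7a-5p and let-7c-5p also differ at 1 base, so signal may be shared between probes of the family, which was not tested. With normexp and an offset the family's share here was 5.25%, and without miR-451a in the total it was 5.31%. It was 3.69% ± 0.172 on the exoRNeasy array and 1.59% ± 0.0837 on the mirVana PARIS array.

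Behind these came the miR-29 family, repressors of collagen genes, with all 3 members detected and 1.88% ± 0.142. The miR-17/20/93/106 seed had 4 of 6 detected, miR-106b-5p, miR-20a-5p, miR-93-5p and miR-20b-5p, with 1.20% ± 0.0802. miR-19b-3p and miR-19a-3p gave 0.849% ± 0.0738, and miR-92a-3p with miR-25-3p gave 0.847% ± 0.0677. With normexp and an offset the last 3 shares were 2.82%, 1.52% and 1.71%.

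Neighbouring hairpins were detected together in part. Grouping hairpins on 1 strand at most 10 kb apart, 11 clusters held 2 or more detected miRNAs, 25 miRNAs in all. The erythroid Mir144 and Mir451a cluster at chr11:78073005-78073241 on the plus strand gave 49.8% ± 1.88 of the signal. Within it miR-451a was 92.8 times as bright as miR-144-3p, against 118 times on the exoRNeasy array and 60.03 times on the mirVana PARIS array. The Mir23a, Mir27a and Mir24-2 cluster at chr8:84208518-84208921 on the plus strand gave 4.02% ± 0.252, with miR-23a-3p 2.21 times as bright as miR-24-3p and 2.56 times as bright as miR-27a-3p. Part of miR-24-3p can come from a copy on chromosome 13. The Mir17 to Mir92-1 cluster at chr14:115043671-115044506 on the plus strand had 4 of its 11 miRNAs on the array detected, miR-19b-3p, miR-92a-3p, miR-20a-5p and miR-19a-3p. Its share was 1.65% ± 0.106, of which miR-19b-3p and miR-92a-3p can also come from the X chromosome.

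Of the 71 miRNAs 33 were 5p arms (17.6% ± 0.782 of the signal), 26 were 3p arms (16.2% ± 0.684) and 12, including miR-451a, carry no arm in their name (66.2% ± 1.32). Without miR-451a the 3 classes were close, at 34.8%, 31.98% and 33.3%. Of the 59 miRNAs with an arm, 49 had an opposite arm of the same name on the array, and 47 of those 49 opposite arms were not detected. Opposite arms named with a copy number, such as miR-16-2-3p and miR-24-2-5p, are not among the 49. These 2 were on the array and not detected. The 2 detected are a share close to the 3.77% of all miRNAs on the array, so nothing about arms is read from this count. Both belong to the hairpin of miR-140, best known from cartilage, with a signal of 15.4 ± 1.51 for the 3p arm and 12.3 ± 1.14 for the 5p arm. Their log2 ratio of 0.32 ± 0.20 was smaller than the 0.89 ± 0.21 of the exoRNeasy array and the 1.08 ± 0.16 of the mirVana PARIS array. On the mirVana PARIS array 3 of the 47 were detected, miR-144-5p, miR-142a-5p and let-7d-3p, the last also on the exoRNeasy array.

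The detected miRNAs had fewer G and C bases than the array as a whole. Their median GC content was 45.5% over 61 miRNAs, against 52.2% over all 1608 with a sequence, and their median length was 22 bases, as for all. U was the first base in 37 of 61 (60.7%) and in 647 of 1608 (40.2%). Of the 57 with a sequence that were detected on another array and not on this one, the median GC content was 50% and U came first in 23 (40.4%).

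Of the brightest 60 miRNAs of each other array, 5 of the exoRNeasy array and 2 of the mirVana PARIS array were not detected here. The brightest 51 of each were detected, a cut set by the first one missing. That one was the same on both, miR-30d-5p at rank 52. Of the 83 miRNAs detected on the exoRNeasy array 16 (19.3%) were not detected here, and of the 134 on the mirVana PARIS array 63 (47.0%) were not. These 16 held 2.43% of the exoRNeasy signal, and these 63 held 3.04% of the mirVana PARIS signal. The sets shared 13 miRNAs. Every miRNA detected here was detected on the mirVana PARIS array, and 4 were not detected on the exoRNeasy array, miR-1249-3p, miR-1897-5p, miR-296-5p and miR-3470a, which were named after their values were seen. Of these, miR-1249-3p, miR-296-5p and miR-3470a had higher total gene signals on the exoRNeasy array (7.52, 8.58 and 8.05) than here (4.48, 4.52 and 4.80). The dimmest detected probe was at 22.03 there and at 12.4 here, so the missing call there does not show a lower level.

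**Figure D3:**
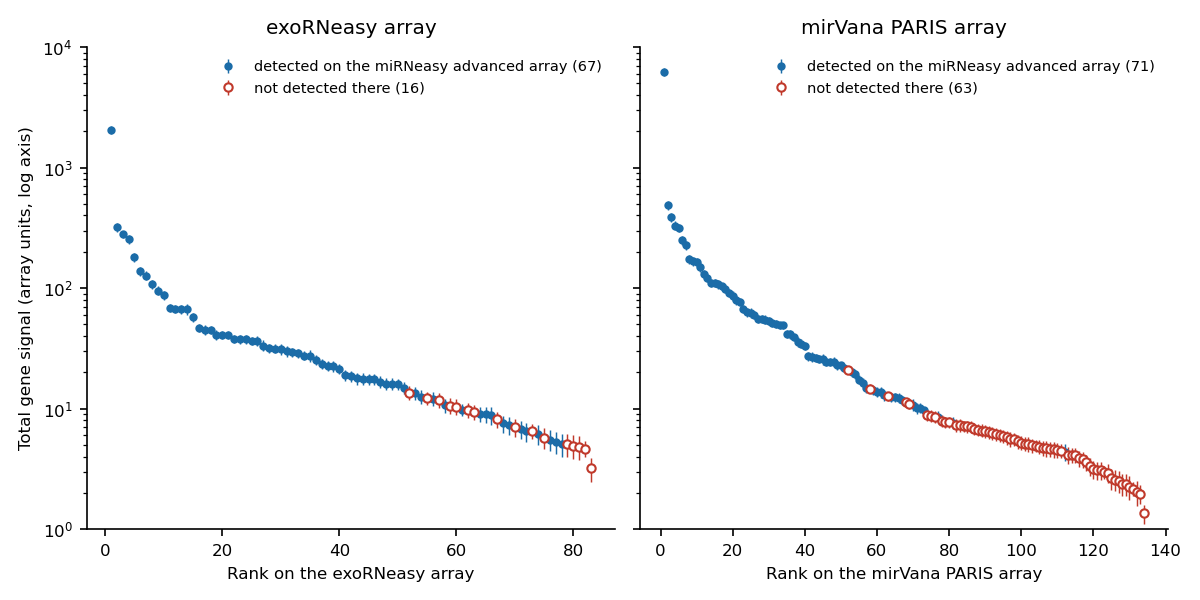
Total gene signal (array units, log axis) against rank for every miRNA detected on the exoRNeasy array (left) and on the mirVana PARIS array (right), filled where the miRNeasy advanced array also detected it and open where it did not, with bars for the scanner software's error. Open points begin at rank 52 on both arrays, and 16 of 83 and 63 of 134 are open.

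Within the brightest 60 of the exoRNeasy array 5 miRNAs were missing. They were miR-30d-5p (signal 13.6 there), the epithelial miR-200b-3p (12.3), miR-574-5p (11.7), miR-483-3p (10.6), which lies in the Igf2 gene, and miR-429-3p (10.4), of the miR-200 family. Their signals here were 4.19, 1.83, 1.70, 4.25 and 0.1, the value the software writes for a miRNA without signal. The missing members of the miR-200 family were these, with the seed in capitals, all from 1 locus on chromosome 4.
miR-200b-3p: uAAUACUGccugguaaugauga
miR-200a-3p: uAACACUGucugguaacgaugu
miR-429-3p: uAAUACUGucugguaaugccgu

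For a miRNA below detection only a bound can be given, which divides the scaled level on the other array by the lowest level that counted as detected here, or by the measured level where that is higher. miR-200b-3p was at least 2.65-fold lower than on the exoRNeasy array, miR-200a-3p at least 2.02-fold, and both miR-6978-5p and miR-5119 at least 2.10-fold. The shares of miR-200b-3p and miR-200a-3p were 0.233% and 0.178% on the exoRNeasy array. On the mirVana PARIS array they were also small, at 0.0433% and 0.0262%, and miR-429-3p was not detected there. The other 12 bounds were from 1.03-fold to 1.87-fold for miR-574-5p, with miR-30d-5p at 1.65-fold and miR-429-3p at 1.22-fold. Scaling divides an array by its 75th percentile across 106 probes, those that all 3 arrays detected, and without it 12 of the 16 bounds reached 2-fold.

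Against the mirVana PARIS array 2 of the 63 missing miRNAs were in its brightest 60, miR-30d-5p (20.8 there) and miR-3473g (14.7), and 60 of the 63 were in the dimmer part of its list. No scaled bound reached 2-fold, and that of miR-30d-5p, 1.32-fold, was the 1 above 1. Without scaling 18 of 63 bounds reached 2-fold. For 40 of the 63 no spot of any probe was well above background here. Tissue list members among the 63, named after their values were seen, include miR-148a-3p and miR-101a-3p of the liver list, the lymphocyte miRNA miR-150-5p, miR-375-3p of the epithelial list, which is also made in pancreatic islets, and the neuronal miRNA miR-128-3p, at signals of 8.82, 11.3, 7.08, 7.71 and 3.59 on the mirVana PARIS array.

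The rule for detection cut through overlapping signals. The 5 dimmest detected miRNAs were let-7d-5p (2.84 ± 0.585), miR-195a-5p (3.07 ± 0.598), miR-497a-5p (3.33 ± 0.610), miR-107-3p (3.52 ± 0.621) and miR-30e-5p (3.54 ± 0.621), each with 1 of 2 probes detected. The 5 brightest undetected were miR-3960 (4.90 ± 0.801), miR-3473g (4.77), miR-483-3p (4.25 ± 0.785), miR-30d-5p (4.19 ± 0.781) and miR-7082-5p (4.03 ± 0.779), with 33.3% to 46.7% of the spots of their best probe above background. A higher total signal thus did not imply detection. The lowest signal of a detected probe was 12.4.

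Levels were then compared after scaling, in log2 units, with a difference counted when it was at least 2-fold and over 3 spot errors. Of 67 miRNAs detected on both this and the exoRNeasy array, 1 was higher here (1.49%) and 2 were lower (2.99%). miR-142a-3p was higher by 1.14 ± 0.06, and miR-466i-5p (−1.43 ± 0.08) and miR-3095-3p (−1.04 ± 0.09) were lower. Here miR-3095-3p was near the detection limit, with its brightest probe at 12.7 and 53.3% of the spots of its best probe above background. Short of the 2-fold line lay miR-5126 (0.996 ± 0.0354), miR-3473f (0.87 ± 0.10), miR-144-3p (0.86 ± 0.05), miR-5128 (0.77 ± 0.03) and miR-451a (0.50 ± 0.02) above 0. Below 0 lay miR-122-5p (−0.97 ± 0.04), miR-328-3p (−0.92 ± 0.08), let-7d-5p (−0.86 ± 0.09) and miR-342-3p (−0.86 ± 0.05). Without scaling the counts were 0 higher and 29 lower. miR-142a-3p stayed above 0 in the 7 other settings of scaling, background and signal, between 0.17 and 1.44, and passed 2-fold in 2 of them. With normexp background correction miR-466i-5p was at −0.50 and miR-3095-3p at −0.06.

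Of 71 miRNAs compared with the mirVana PARIS array, 10 were higher here (14.1%) and 2 were lower (2.82%). The highest were miR-1249-3p (2.02 ± 0.13), miR-3473f (1.90 ± 0.09), let-7c-5p (1.58 ± 0.06), let-7b-5p (1.36 ± 0.05), miR-466i-5p (1.33 ± 0.09) and miR-296-5p (1.31 ± 0.11), followed by miR-5128, miR-5126, let-7a-5p and miR-3473b at 1.04 to 1.25. Without scaling miR-1249-3p (0.21) and miR-3473f (0.10) stayed above 0 and the other 8 turned to below 0. The brightest probes of miR-1249-3p and miR-296-5p were at 13.2 and 12.4 here, next to the dimmest detected probe at 12.4. On the mirVana PARIS array they were at 11.4 and 18.3. For miR-3473f the brightest probe was at 23.4 here and 23.9 there. Both miRNAs counted as lower are made in muscle, miR-133b-3p at −1.34 ± 0.04 and miR-133a-3p at −1.33 ± 0.05. Whether the probes of these 2 tell them apart was not tested. The other detected member of the muscle list, miR-1a-3p, was at −0.40 ± 0.04. The 2 miR-133 miRNAs were below 0 in each of the 7 other settings. With normexp they fell short of 2-fold, at −0.59 and −0.31, and with uncorrected medians at −0.67 and −0.38. Next were miR-122-5p (−0.78 ± 0.04), miR-93-5p (−0.76 ± 0.06), miR-144-3p (−0.74 ± 0.04) and miR-16-5p (−0.73 ± 0.02). Without scaling the counts were 0 higher and 57 lower, and the median of all differences moved from 0.18 to −1.63. In the comparison with the exoRNeasy array it moved from −0.12 to −0.96.

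**Figure D4:**
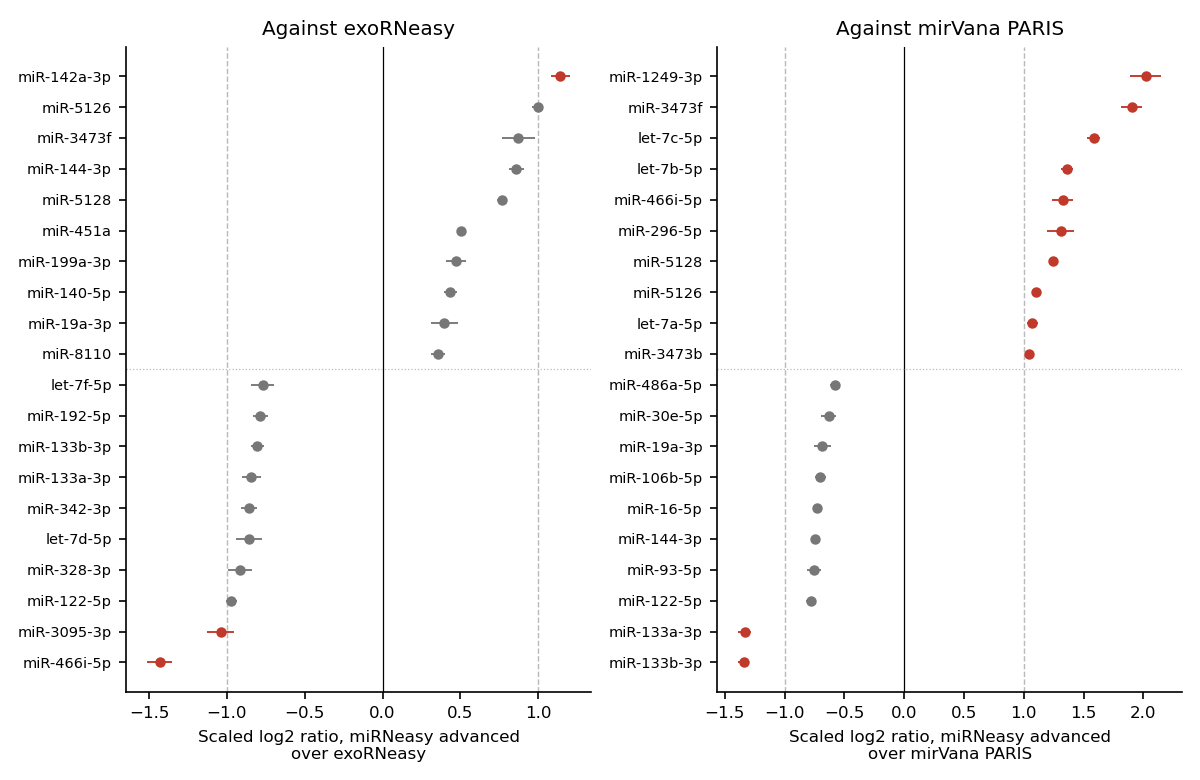
Scaled log2 ratio of the miRNeasy advanced array over the exoRNeasy array (left) and over the mirVana PARIS array (right) for the 10 lowest and 10 highest miRNAs of each, with bars for the standard error between spots and dashed lines at 2-fold. Red points pass 2-fold and 3 spot errors: miR-142a-3p above, miR-466i-5p and miR-3095-3p below on the left, and 10 above and the 2 miR-133 miRNAs below on the right; without scaling none passes 2-fold upwards.

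The lists shifted in different ways against the 2 arrays, which are given side by side because both use this same array. Against the exoRNeasy array the median over all miRNAs was −0.12, and the list medians were −0.19 for red blood cell (13 miRNAs), −0.04 for platelet and myeloid (8), −0.12 for lymphocyte (5), −0.39 for let-7 (7), −0.62 for liver and gut (4) and −0.80 for muscle (3). Against the mirVana PARIS array, where the median over all was 0.18, they were −0.38, 0.42, 0.12, 0.72, −0.15 and −1.33. All 13 red blood cell miRNAs lay below that median of all, as did the 4 of liver and gut and the 3 of muscle, and the 7 of let-7 lay above it. Against the exoRNeasy array 8 of 13 red blood cell, 3 of 4 liver and gut, 2 of 3 muscle and 5 of 7 let-7 miRNAs lay below its median of all. Members of a list share families and clusters, so they are not independent counts. With several probes detected on both arrays, the probes of 1 miRNA gave ratios of opposite sign for 5 of 39 miRNAs against exoRNeasy and for 5 of 42 against mirVana PARIS, and none of those was past the 2-fold line.

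Ranks need no scaling, but they order the total gene signal and so depend on how many probes each array detected. Among the 67 miRNAs detected on all 3 arrays, 43 kept their rank within 5 places of the exoRNeasy array and 33 within 5 places of the mirVana PARIS array, and 18 and 24 moved by 10 or more. The 10 brightest were the same miRNAs on this and the exoRNeasy array, and 9 of them were also among the 10 brightest of the mirVana PARIS array. Against the exoRNeasy array miR-142a-3p stood 27 places higher, miR-144-3p 20, miR-5126 and miR-5128 16 each and miR-199a-3p 14. miR-466i-5p stood 28 places lower, miR-122-5p 18, miR-328-3p 17, miR-3095-3p 14 and miR-30a-5p 12 places lower. Against the mirVana PARIS array let-7c-5p stood 24 places higher, miR-3473f 23, let-7b-5p 18, and miR-466i-5p and miR-126a-3p 15 each. miR-133b-3p stood 26 places lower, miR-133a-3p 21, miR-20b-5p 19, miR-122-5p 17 and miR-30e-5p 14 places lower. Of these, miR-328-3p and miR-3095-3p had 1 probe detected here and 2 on the exoRNeasy array, and miR-142a-3p had 2 here and 1 there. Both miR-133 miRNAs, miR-20b-5p and miR-30e-5p had 1 here and 2 on the mirVana PARIS array. The other miRNAs named for these shifts had equal numbers on the 2 arrays compared.

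Read together by miRNA, miR-122-5p and both miR-133 miRNAs ranked lower here than on either other array. miR-466i-5p had the lowest signal here, at 8.32, with 41.0 measured for exoRNeasy and 11.7 for mirVana PARIS, and by rank or after scaling it stood below the former and above the latter. miR-142a-3p measured 16.6, 10.6 and 34.5 in that order. Its total gene signal of 16.6 ± 1.54 was above the 10.6 ± 1.45 of the exoRNeasy array before any scaling. However, 2 of its 2 probes were detected here and 1 of 2 there. The brightest probe was closer, at 61.7 here and 50.2 there.

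**Figure D5:**
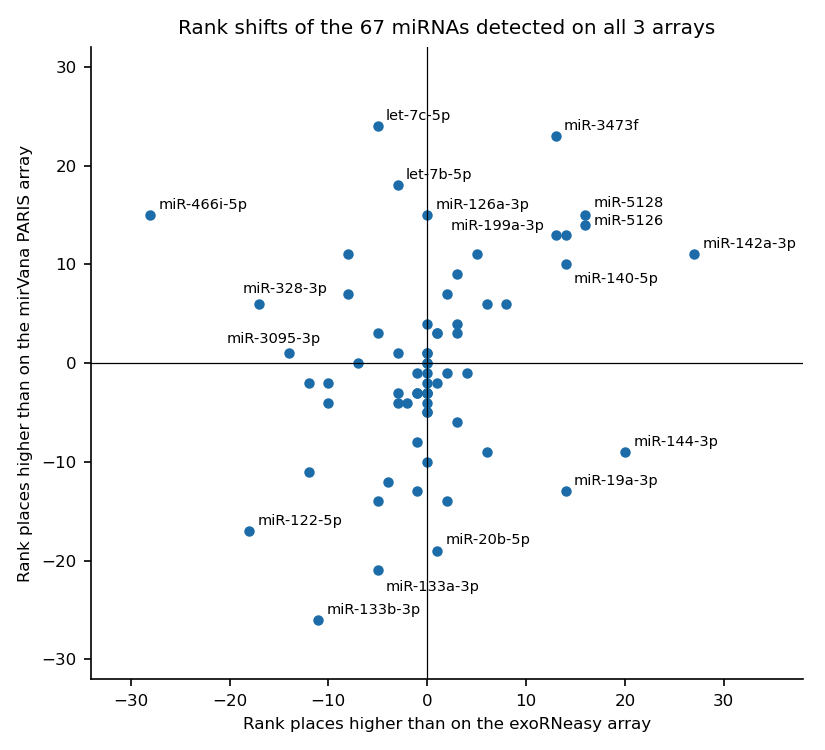
Rank places by which each of the 67 miRNAs detected on all 3 arrays stood higher (positive) or lower (negative) on the miRNeasy advanced array than on the exoRNeasy array (x axis) and the mirVana PARIS array (y axis), 1 point per miRNA. miR-5126, miR-5128 and miR-3473f lie higher against both, and miR-122-5p and miR-133b-3p lower against both. miR-466i-5p is 28 places lower on one axis and 15 higher on the other. Of the 4 probes of miR-3473f, 4 were detected here and 1 on the exoRNeasy array.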

How the data were processed

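Per the file headers, the deposited spot intensity is linear scanner output with background subtracted by the software, Agilent Feature Extraction in version 11.5.1.1. No normalisation between arrays is recorded there, and the 3 arrays shared a slide and a scan. The total gene signal is the software's value for a miRNA, derived from its probes and on another scale than single probe signals. Outlier spots (1474 of 56430 on the miRNeasy advanced array) were left out, and no spot was saturated. For ratios, spots below 1 were set to 1, and log2 values were averaged per probe and scaled by the 75th percentile over 106 probes. A miRNA took the probe detected on most arrays, then the brightest. Detection needed over 0.5 of the spots. The normexp alternatives used limma 3.58.1 in R 4.3.3 on spot medians in place of the planned spot means, which were not used here, and the rest ran in Python 3.11.15 with pandas 2.3.3. Other alternatives changed the scaling, the detection rule and the signal. The miRNAs named were the 25 brightest, list and family members, missing miRNAs and the extreme ratios and rank shifts. Members and lists were chosen with earlier results of these data known. Genes came from RefSeq on GRCm38.p6 by name. The mean negative-control signal was 4.92.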

Additional observations from a re-analysis of the deposited data

How the results depend on the processing

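Precision is limited by 1 array per kit and by low signal, since the dimmest detected probe was at 12.4 and negative controls at 4.92 on average. No paired analysis was possible because each kit had 1 array and no test was made. The share of miR-451a, 49.3%, was 46.6% with the mean over detected probes, 44.9% with the brightest probe, 46.0% over all miRNAs with signal, 43.2% with normexp without offset and 31.3% with normexp and an offset of 50, which raises dim miRNAs by construction. Over the same settings the brightest 10 had 73.2%, 74.8%, 71.03%, 69.0% and 53.3%, and 74.8% with the software's gene flag. The red blood cell list had 53.7%, 52.4%, 52.5%, 51.1% and 41.8%, and 13.8% without miR-451a. The platelet and myeloid list had 14.7% with the brightest probe, 12.2% over all miRNAs with signal, 12.3% and 11.98% with normexp without and with the offset, and 25.6% without miR-451a. The settings without offset and without miR-451a were added after the data had been seen.

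With every probe required, 41 miRNAs were detected here, 44 on the exoRNeasy array and 75 on the mirVana PARIS array. On that rule 6 of the 44 and 34 of the 75 were missing here. With the gene flag, 45 of the 134 flagged on the exoRNeasy array were missing. Bounds of 2-fold numbered 12 and 18 without scaling. Against the exoRNeasy array the counts higher and lower were 0 and 29 without scaling, 0 and 12 with a percentile taken over every probe and 5 and 1 with median scaling. They were 0 and 40 with the labelling spike-in, 0 and 0 with normexp with offset and with uncorrected medians, and 1 and 5 with the total gene signal. Against mirVana PARIS they were 0 and 57 unscaled, 0 and 56 with every probe and 0 and 53 with the spike-in. They were 7 and 0 both with normexp with offset and with uncorrected medians. With median scaling they were 11 and 2, and with the total gene signal 14 and 2. In those first 3 settings let-7b-5p was at −0.44, −0.41 and −0.31, let-7c-5p at −0.22, −0.19 and −0.093, miR-296-5p at −0.50, −0.47 and −0.37, and miR-466i-5p at −0.48, −0.45 and −0.35. Beyond what the construction of each setting shows, the cause was not tested.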
